A study of Homo sapiens with 12 samples.

Results

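The genes described here carry out MHC class I antigen presentation in LNCaP cells: the class I heavy chains HLA-B, HLA-C and HLA-E, their light chain B2M, the peptide transporter subunits TAP1 and TAP2, and the loading bridge TAPBP. They were taken by gene symbol from a list of 9, of which 7 had a value among the 13001 genes listed. The other listed genes, the immunoproteasome subunits PSMB8 and PSMB9, were not analysed here.

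RNA-seq of polyA RNA was carried out on LNCaP, an androgen-sensitive line derived from a lymph node metastasis of prostate cancer, used at passage 8 and grown in RPMI 1640 with 10% FBS. The cells were transiently transfected with Lipofectamine 2000, with a medium change after 6 hours, and the 12 libraries fell into 4 groups of 3. One group received an empty vector (EV) as the control. The LSD1 group received a plasmid coding for LSD1, the histone demethylase encoded by KDM1A. The LSD1+8a group received a plasmid for the LSD1 isoform that contains microexon 8a, and the SRRM4 group one for SRRM4, a neural splicing factor. By its title, the study asked how SRRM4 relates to LSD1+8a splicing in neuroendocrine prostate cancer. The labels give neither the share of cells transfected nor the time of harvest, and are silent on whether each library was its own culture. The p-values thus cover only how these libraries varied, which could be technical variation.

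Class I molecules show peptides from inside the cell to CD8 T cells. Proteasomes cut proteins into peptides, the TAP1-TAP2 transporter moves these into the endoplasmic reticulum, and tapasin, encoded by TAPBP, holds the empty heavy chain with B2M beside the transporter until a peptide is bound. Interferon signalling, with IRF9 and IRF1 among its factors, NF-kB, and the transactivator NLRC5 are known to raise transcription of these genes, and low class I is a known feature of many prostate cancers.

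The control regions of these genes are shown first, as background. Binding of the factors named above was not measured in these cells. RefSeq promoters of build GRCh38.p14 matched 6 of the genes; HLA-E had no entry. Each line gives the 200 bases upstream of the annotated start, 5′ to 3′ on the gene's strand. Capitals mark matches, on either strand, to the core of the interferon-stimulated response element (ISRE; TTTC, any 2 bases, and TTTC again) or to the NF-kB site.
TAP1 (chr6:32853705-32853904, minus strand): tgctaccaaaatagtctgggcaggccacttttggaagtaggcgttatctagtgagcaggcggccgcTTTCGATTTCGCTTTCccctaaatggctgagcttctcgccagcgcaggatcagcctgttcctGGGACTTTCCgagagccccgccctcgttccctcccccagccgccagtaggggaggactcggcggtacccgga
TAPBP (chr6:33314079-33314278, minus strand): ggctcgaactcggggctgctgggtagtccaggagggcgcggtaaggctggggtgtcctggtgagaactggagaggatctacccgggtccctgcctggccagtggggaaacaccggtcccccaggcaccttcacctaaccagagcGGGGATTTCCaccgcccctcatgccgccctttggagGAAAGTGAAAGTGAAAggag
B2M (chr15:44711317-44711516, plus strand): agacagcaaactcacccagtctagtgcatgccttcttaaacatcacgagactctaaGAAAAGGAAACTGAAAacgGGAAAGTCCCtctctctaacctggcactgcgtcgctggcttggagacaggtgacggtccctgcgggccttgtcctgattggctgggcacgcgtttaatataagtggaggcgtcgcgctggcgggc
TAP2 (chr6:32838740-32838939, minus strand): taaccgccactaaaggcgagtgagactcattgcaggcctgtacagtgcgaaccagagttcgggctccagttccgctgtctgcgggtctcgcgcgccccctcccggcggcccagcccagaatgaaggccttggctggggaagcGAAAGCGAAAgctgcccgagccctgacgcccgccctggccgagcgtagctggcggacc
HLA-B (chr6:31357180-31357379, minus strand): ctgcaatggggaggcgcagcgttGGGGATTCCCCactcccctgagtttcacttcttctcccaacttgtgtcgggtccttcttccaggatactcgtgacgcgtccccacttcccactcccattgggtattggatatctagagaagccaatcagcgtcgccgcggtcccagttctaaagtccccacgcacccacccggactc
HLA-C (chr6:31272093-31272292, minus strand): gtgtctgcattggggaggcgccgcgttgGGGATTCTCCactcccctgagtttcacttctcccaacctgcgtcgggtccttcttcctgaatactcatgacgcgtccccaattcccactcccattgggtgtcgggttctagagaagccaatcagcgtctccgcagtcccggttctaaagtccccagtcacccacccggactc
The first capitals of TAP1 are 2 overlapping ISRE cores, 134 and 128 bases before the start, and the second are an NF-kB match that begins 72 bases before it. TAPBP carried them in the opposite order, with the NF-kB match 56 bases and the 2 ISRE cores 20 and 14 bases before the start. In B2M the 2 ISRE cores (144 and 138 bases before the start) lay next to an NF-kB match at 125 bases. TAP2 had 1 ISRE core, 58 bases before the start, and no NF-kB match. HLA-B, with 2 overlapping matches, and HLA-C, with 1, held the NF-kB motif and no ISRE core of this spelling in 250 bases. Other spellings of the ISRE were not searched for, so these 2 promoters may still hold one. Over 35116 RefSeq promoter windows of 250 bases, 3.02% held an ISRE core and 5.21% an NF-kB match. A match is a description of the letters, not a measured site. TAP1 has a second annotated start, whose window held neither motif. In the RefSeq order of protein-coding genes TAP1 and TAP2 are separated by PSMB8 alone, in the class II region of chromosome 6. B2M lies outside the MHC, on chromosome 15.

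Counts summed to between 10.88 and 13.57 M per library, with the lowest totals in the SRRM4 group (10.88 to 11.49 M). Levels below are counts scaled to library size with TMM factors (CPM), and levels between genes are compared only in TPM, the unit that the authors scaled to gene length as well. KDM1A followed the plasmids: it stood at 93.7 to 95.2 CPM in EV, 515 to 587 in LSD1, 1983 to 2608 in LSD1+8a and 92.0 to 100.1 in SRRM4. All 10 prostate line markers were measured, and their summed level was 8340 to 8553 CPM in EV, 8413 to 8681 in LSD1, 8170 to 8455 in LSD1+8a and 7577 to 7658 in SRRM4. Of 15 markers of leukocytes and endothelium, cells that carry much class I, 2 were measured (CD68 and VWF), with sums of 27.3 to 29.1 CPM in EV, 25.2 to 28.0 in LSD1, 26.5 to 28.7 in LSD1+8a and 22.0 to 28.1 in SRRM4. The other 13 were not analysed here.

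In cells with the empty vector the order of the 7 genes by length-scaled level ran from the middle to the top of the 13001 genes listed. Genes absent from that list do not enter the shares given here. B2M led at 388 ± 14.7 TPM (SD, n = 3), above 97.8% of the listed genes. HLA-C at 180 ± 5.40 TPM (94.6%) and HLA-B at 75.6 ± 3.07 TPM (85.1%) came next. TAPBP followed at 43.7 ± 1.61 TPM (73.6%) and TAP2 at 30.99 ± 5.76 TPM (64.4%). TAP1 (22.5 ± 1.19 TPM, 55.5%) and HLA-E (18.2 ± 0.690 TPM, 49.0%) were lowest. The empty-vector values of neighbours in this order did not overlap. B2M stood at 1.35 to 1.53 times the summed TPM of HLA-B, HLA-C and HLA-E in every library, so the light chain and these heavy chains kept a narrow ratio across the 4 groups.

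SRRM4 against the empty vector gave the broadest difference. TAP1, B2M, TAPBP, HLA-E, HLA-B and HLA-C were higher with SRRM4, by 9.84 to 27.2%, and TAP2 was not distinguishable. Genes were called at an adjusted p under 0.05 in edgeR's quasi-likelihood F test, with Benjamini-Hochberg adjustment over all 13001 genes. By that rule 6 of 7 genes were called higher and 0 lower, where 4.47% of all genes were called higher. The genes and lists were chosen with earlier results of these data known. Shares over all genes, here and below, are therefore given for description and test nothing about the lists. The median log2 fold change of the 7 was 0.21, against -0.0011 over all genes. All 3 SRRM4 libraries lay above all 3 controls for 5 of the 7, which was so for 13% of all genes. Summed, the 7 genes made up 0.0645 ± 0.000364% of counts in EV libraries, 0.0666 ± 0.000265% in LSD1, 0.0701 ± 0.000199% in LSD1+8a and 0.0743 ± 0.000702% in SRRM4 (SD, n = 3). How many of the 7 were called varied with the processing, from 2 on deposited TPM values to 6, and from 3 (without EV library 3) to 6 when single libraries were left out. In bulk RNA a small change in every cell and a larger one in fewer cells cannot be told apart.

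**Figure D1:**
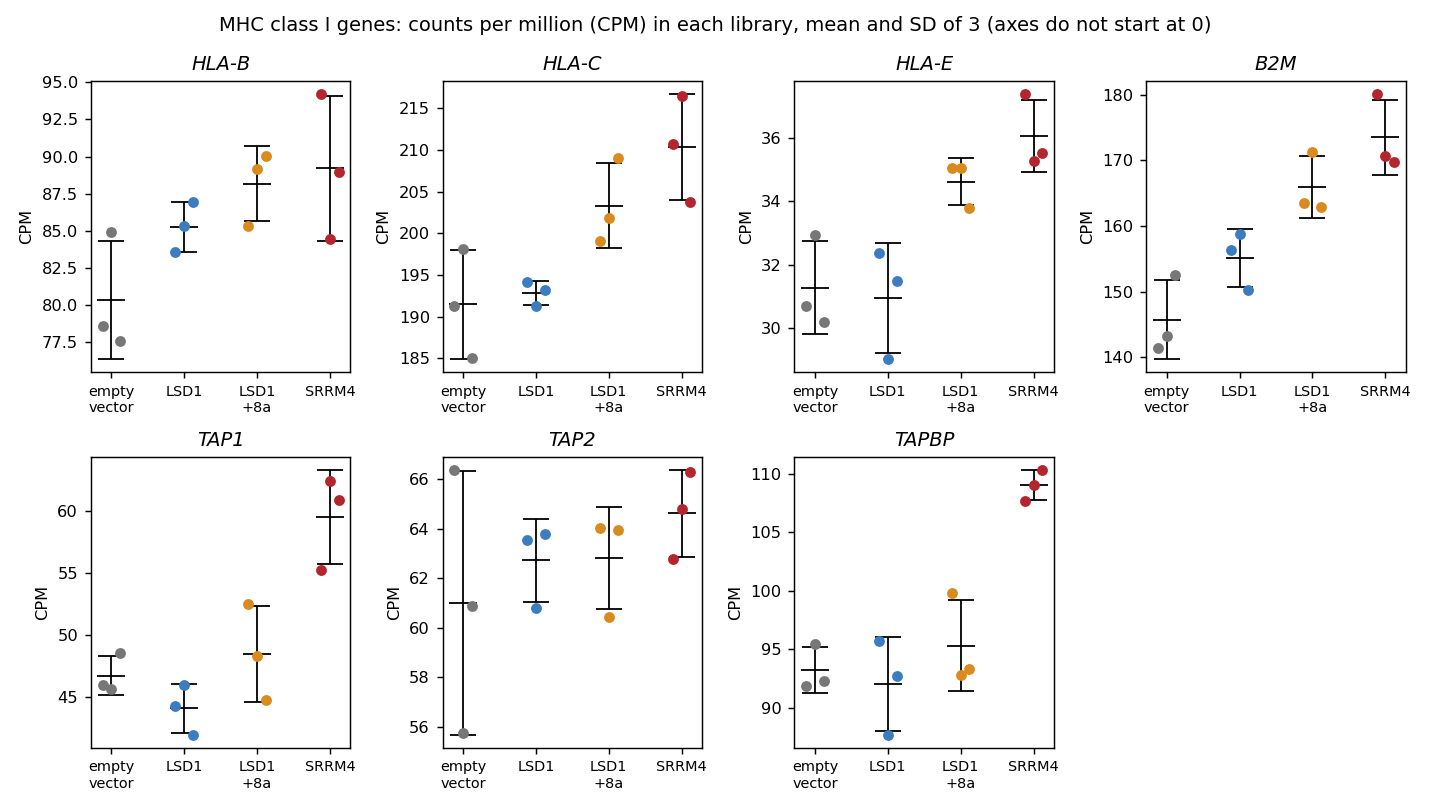
Level of each gene in each library, in TMM-scaled CPM (vertical axis, a separate scale for each gene), for the 4 groups of 3 libraries; points are libraries, bars are group means with SD, and the axes do not start at 0. TAP1 and TAPBP stand apart in the SRRM4 group, B2M is above the controls in both the LSD1+8a and SRRM4 groups, and the groups overlap for TAP2.

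TAP1, the subunit that pairs with TAP2 to form the transporter, had the largest difference. Its level was 46.0, 45.7 and 48.6 CPM in the 3 empty-vector libraries, 44.3, 46.0 and 42.0 in LSD1, 52.5, 48.3 and 44.8 in LSD1+8a, and 55.2, 62.4 and 60.9 in SRRM4. The SRRM4 libraries lay above the other 9, and the other groups overlapped. With SRRM4 the log2 fold change against the empty vector was 0.35 (SE 0.058, adjusted p = 7.2e-05 in edgeR), a level 27.2% higher (95% interval 17.2 to 38.0%). Against LSD1+8a the log2 fold change was 0.29 (SE 0.058, adjusted p = 0.000946), and against LSD1 it was 0.43 (SE 0.060, adjusted p = 4.03e-06). LSD1+8a against the empty vector gave 0.06 (95% interval -0.06 to 0.18), which did not pass. The calls against EV and LSD1+8a held in 8 of 10 alternative settings and with any 1 library left out. They were lost on log2 TPM, where the adjusted p was 0.0647 to 0.0656 against EV and 0.126 to 0.128 against LSD1+8a. In GENCODE v29 on GRCh38, 9.49% of the exonic bases of TAP1 lie opposite the noncoding gene PSMB8-AS1. Whether reads were counted by strand is not given, so the counts of TAP1 could include reads from that gene.

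TAP2, the partner subunit of the transporter, showed no such difference. It stood at 66.4, 55.7 and 60.9 CPM in EV, 63.6, 60.8 and 63.8 in LSD1, 64.0, 60.4 and 64.0 in LSD1+8a, and 62.8, 64.8 and 66.3 in SRRM4. All 4 groups overlapped. The log2 fold change with SRRM4 was 0.08 (95% interval -0.02 to 0.19, adjusted p = 0.39 in edgeR). This interval reaches a 14.3% higher level, so a small rise remains possible. Its deposited TPM varied more than its counts: the TPM per CPM ran from 0.390 to 0.668 over the 12 libraries, a 1.71-fold range against 1.04 to 1.17-fold for the other 6 genes, and the spread within groups was 17.6% in TPM and 5.03% in CPM. In GENCODE v29 on GRCh38, 32.3% of the exonic bases of TAP2 lie in the overlapping protein-coding gene AL669918.1 on the same strand, and 32.7% of its 50-base stretches occur in that gene too. The counts of TAP2 are therefore uncertain where that gene was counted, and the part of this overlap in the TPM spread was not tested.

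**Figure D2:**
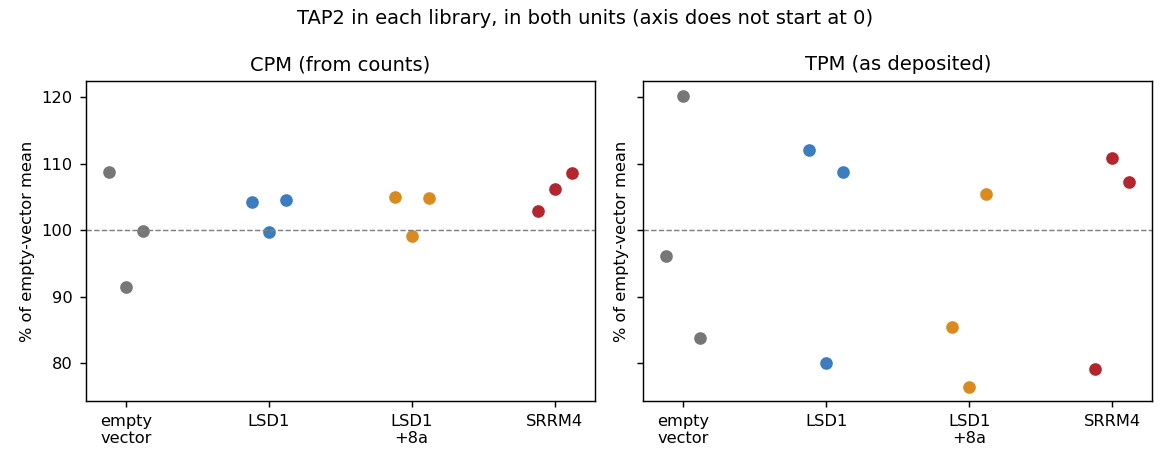
TAP2 in each of the 12 libraries (points) as a percentage of the empty-vector mean, from counts (left, CPM) and from the deposited TPM (right); the axis does not start at 0. Within groups the points spread by 5.03% in CPM and 17.6% in TPM, and all 4 groups overlap in both units.

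TAPBP encodes tapasin, which links the transporter to the empty heavy chain. It stood at 91.9, 95.5 and 92.3 CPM in EV, 95.7, 87.7 and 92.7 in LSD1, 99.8, 92.8 and 93.3 in LSD1+8a, and 108, 109 and 110.3 in SRRM4. As for TAP1, the SRRM4 libraries lay above the other 9, and the remaining groups overlapped. The log2 fold change was 0.23 against the empty vector (SE 0.042, adjusted p = 0.000337 in edgeR), 0.19 against LSD1+8a (SE 0.042, adjusted p = 0.0025) and 0.24 against LSD1 (SE 0.043, adjusted p = 0.00018). The calls held with any 1 library left out. On log2 TPM the adjusted p was 0.0576 to 0.0582 against EV and 0.121 against LSD1+8a, so both calls were lost there.

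B2M, the light chain common to all class I molecules, was the gene that passed in both the SRRM4 and the LSD1+8a comparison with the empty vector. Its level was 141, 143 and 153 CPM in EV, 156, 159 and 150.3 in LSD1, 163, 171 and 163 in LSD1+8a, and 180.1, 171 and 169.7 in SRRM4. The LSD1+8a and SRRM4 libraries all lay above the 3 controls and overlapped with each other, and the LSD1 libraries overlapped the controls. With SRRM4 the log2 fold change was 0.25 (SE 0.038, adjusted p = 1.26e-05 in edgeR), a level 19.0% higher (95% interval 12.9 to 25.5%). This call held in all 10 alternative settings and with any 1 library left out. With LSD1+8a it was 0.19 (SE 0.037, adjusted p = 0.00639), a level 13.8% higher (95% interval 7.97 to 19.96%). That call held in the 10 settings and was lost without EV library 1 (adjusted p = 0.121), EV library 2 (0.0535) or LSD1+8a library 2 (0.102). Against LSD1 the SRRM4 group was higher by 0.16 (SE 0.038, adjusted p = 0.00554), a call lost on log2 TPM (0.0653 to 0.0658) and without LSD1 library 3 (0.0517) or SRRM4 library 1 (0.0583). SRRM4 and LSD1+8a differed by 0.06 (95% interval -0.01 to 0.14), which did not pass.

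HLA-C, a classical class I chain, had the highest TPM of the 3 heavy chains. It stood at 191, 198 and 185 CPM in EV, 194, 191 and 193 in LSD1, 199, 202 and 209 in LSD1+8a, and 211, 216 and 204 in SRRM4. All SRRM4 and LSD1+8a libraries exceeded the controls, LSD1+8a library 1 by the narrowest margin. The log2 fold change with SRRM4 was 0.14 (SE 0.034, adjusted p = 0.00974 in edgeR), called in all 10 settings but not without EV library 3 (adjusted p = 0.0689) or SRRM4 library 2 (0.0726). Against LSD1 it was 0.13 (adjusted p = 0.0205), a call lost in 3 settings (adjusted p up to 0.177) and without LSD1 library 2 (0.0749), LSD1 library 3 (0.0617), SRRM4 library 1 (0.0635) or SRRM4 library 2 (0.130).

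HLA-B, the other classical chain of the list, was less clear. Its level was 78.6, 84.9 and 77.5 CPM in EV, 83.6, 85.3 and 86.9 in LSD1, 85.3, 89.1 and 90.0 in LSD1+8a, and 94.2, 84.5 and 89.0 in SRRM4. SRRM4 library 2 fell below EV library 2, so those groups overlapped, whereas the LSD1+8a libraries were all above the controls. The log2 fold change with SRRM4 was 0.15 (SE 0.046, adjusted p = 0.0369 in edgeR). It was called in 4 of 10 settings (adjusted p 0.0364 to 0.167). Among fits without 1 library it was lost without EV library 1 (0.138), EV library 3 (0.151), SRRM4 library 1 (0.243) or SRRM4 library 3 (0.0885). With LSD1+8a it was 0.13 (SE 0.045, adjusted p = 0.449), not called. Reads could be divided among related genes: 2.12% of the 50-base stretches of HLA-B, 6.17% of HLA-C and 5.13% of HLA-E recur in other genes, mostly other HLA genes, and 17.8% of the exonic bases of HLA-B lie opposite a pseudogene.

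HLA-E encodes a non-classical chain that is read by the NKG2A receptor of natural killer cells. It stood at 30.7, 32.9 and 30.2 CPM in EV, 32.4, 29.04 and 31.5 in LSD1, 35.05, 35.05 and 33.8 in LSD1+8a, and 37.4, 35.3 and 35.5 in SRRM4. The SRRM4 libraries lay above the other 9, and the LSD1+8a libraries above both the EV and the LSD1 libraries. The log2 fold change with SRRM4 was 0.21 (SE 0.063, adjusted p = 0.0369 in edgeR), called in 5 of 10 settings. On log2 TPM it was 0.09 (adjusted p = 0.664), and among fits without 1 library it passed only without EV library 2 (0.0292); without EV library 1 the adjusted p was 0.119, EV library 3 0.130, SRRM4 library 1 0.160, library 2 0.0637 and library 3 0.0708. Against LSD1 it was 0.22 (adjusted p = 0.0286), lost in 3 settings (up to 0.549) and without LSD1 library 2 (0.159), LSD1 library 3 (0.0605), SRRM4 library 1 (0.125), SRRM4 library 2 (0.0577) or SRRM4 library 3 (0.0586).

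In the deposited table of the authors' own comparisons, adjusted p-values for SRRM4 against the empty vector were 3.31e-06 for B2M, 0.000246 for TAP1, 0.00107 for TAPBP and 0.0226 for HLA-C. The same table gave 0.134 for HLA-B, 0.186 for HLA-E and 0.685 for TAP2. For LSD1+8a the authors' deposited table gave 0.0123 for B2M and 0.999 for the other 6 genes.

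LSD1+8a against the empty vector gave 1 call, B2M (1 of 7, where 0.285% of all genes were called higher). All 7 log2 fold changes were above 0, with a median of 0.09, between 0.03 for TAPBP and 0.19 for B2M. HLA-B, HLA-C, HLA-E and B2M had all 3 libraries above the controls (4 of 7, against 6.12% of all genes), and the same 4 had an unadjusted p under 0.05 (3.59% of all genes). The heavy chains stood 6.15 to 10.7% higher without passing (adjusted p = 0.449 to 0.626 in edgeR). TAP1, TAP2 and TAPBP had log2 fold changes of 0.06, 0.04 and 0.03 and overlapped the controls.

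With LSD1, the isoform without the microexon, 0 of the 7 genes were called against the empty vector in edgeR, DESeq2 and limma-voom, where 0.0462% of all genes were called higher. At an unadjusted p under 0.05 edgeR gave 1, B2M (log2 fold change 0.09, adjusted p = 0.774), and 3.09% of all genes reached that higher. The log2 fold changes ran from -0.08 for TAP1 to 0.09 for B2M, with a median of 0.01, and 0 of 7 genes had all 3 libraries above the controls (5.48% of all genes did). The 95% intervals reached at most a 13.2% higher level (HLA-B) and a 13.3% lower one (TAP1).

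In LSD1+8a against LSD1, the isoforms with and without the microexon, 0 of 7 genes were called in edgeR and in the 10 alternative settings, DESeq2 and limma-voom included; 0.208% of all genes were called higher. At an unadjusted p under 0.05, 4 were higher in edgeR: HLA-C, HLA-E, B2M and TAP1, against 2.96% of all genes. HLA-C, HLA-E and B2M had all 3 LSD1+8a libraries above all 3 LSD1 libraries (3 of 7, against 6.16% of all genes). The log2 fold changes of these 3 were 0.08, 0.16 and 0.10, with 95% intervals of 0.01 to 0.15, 0.03 to 0.29 and 0.02 to 0.17. KDM1A itself was higher with LSD1+8a than with LSD1 by 2.07 on the log2 scale, so isoform and amount of LSD1 RNA cannot be told apart in this comparison.

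Against LSD1+8a, TAP1 and TAPBP were higher with SRRM4 (2 of 7 called, where 4.42% of all genes were called higher). The remaining 5 genes differed by 0.02 to 0.06 on the log2 scale and did not pass. Their 95% intervals were -0.07 to 0.11 for HLA-B, -0.02 to 0.12 for HLA-C, -0.07 to 0.18 for HLA-E, -0.01 to 0.14 for B2M and -0.07 to 0.15 for TAP2. Against LSD1, 5 of 7 were called higher with SRRM4 (4.38% of all genes were): TAP1, TAPBP, B2M, HLA-E and HLA-C. The comparisons with one control group share its libraries and are not independent of each other.

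**Figure D3:**
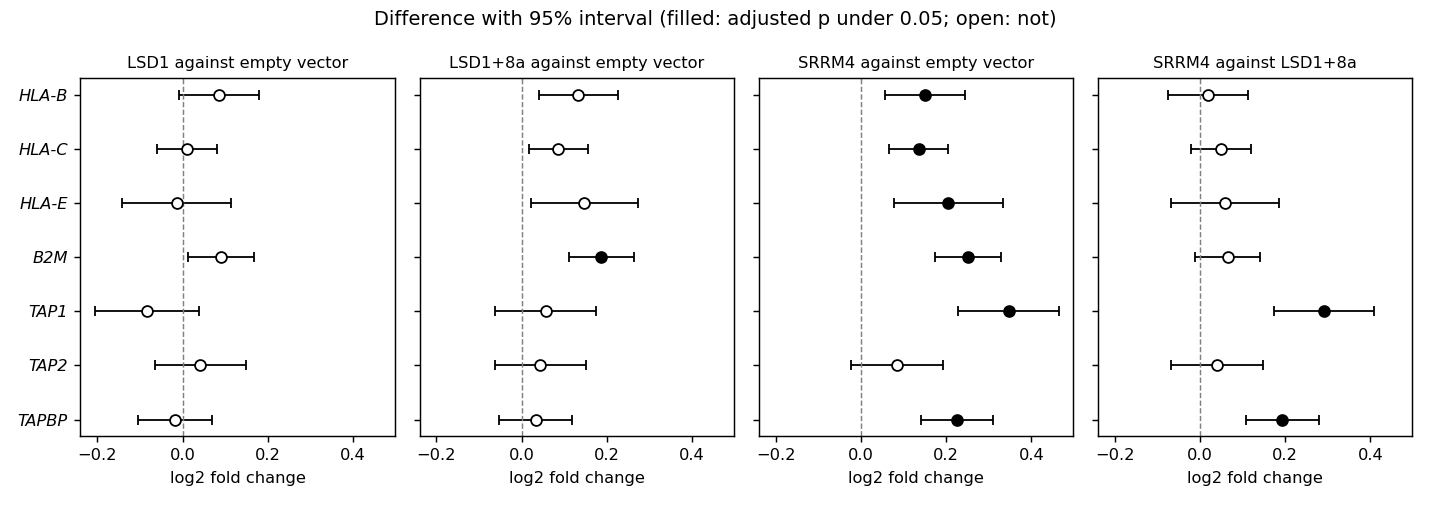
Log2 fold change of each gene (points) with its 95% interval (bars) in 4 comparisons (panels), from edgeR; filled points passed an adjusted p of 0.05, open points did not. With SRRM4 against the empty vector 6 of 7 points are filled, and TAP1 and TAPBP are the genes called against LSD1+8a.

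Of the other class I and class I-like genes, 11 of 21 listed were measured, and 2 rose with SRRM4 and 0 fell, where 4.47% of all genes were called higher and 3.22% lower. These were RAET1L, a ligand of the NKG2D receptor (1.61 to 3.49 CPM, log2 fold change 1.11, adjusted p = 0.00359 in edgeR), and PROCR, the endothelial protein C receptor with a class I-like fold (2.40 to 3.99 CPM, 0.73, adjusted p = 0.0153). Both were at low counts, and 1 of them was called by DESeq2, on log2 TPM and without SRRM4 library 2.

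Peptide loading and trimming, the chaperones and aminopeptidases that act around the loading complex, had 0 of 19 genes called higher and 3 called lower with SRRM4, where 3.22% of all genes were called lower. The 3 were GANAB, a glucosidase II subunit (log2 fold change -0.14, adjusted p = 0.000787 in edgeR), PRKCSH, its partner subunit (-0.16, adjusted p = 0.00232), and calreticulin, CALR, which holds the heavy chain during loading (-0.11, adjusted p = 0.0409). ERAP2, which trims peptides to length, stood at 4.59 CPM with SRRM4 and 3.17 with the empty vector (0.54, adjusted p = 0.0556). On log2 TPM 1 gene of this list was called. With LSD1+8a 0 of 19 passed in edgeR and in the alternatives, and 2 were lower at an unadjusted p under 0.05.

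The proteasome makes the peptides. With SRRM4 4.47% of all genes were called higher, and the counts of proteasome genes were near that share. Of 20 measured genes of its 20S core and assembly, 1 rose: PSMA2, an outer-ring subunit (log2 fold change 0.13, adjusted p = 0.0259 in edgeR), a call lost by DESeq2, on log2 TPM and without EV library 1, EV library 2 or any 1 SRRM4 library. Of 26 genes of the regulatory particles, 2 rose: PSMC4, an ATPase of the base (0.20, adjusted p = 0.000591), and ADRM1, a ubiquitin receptor (0.18, adjusted p = 0.0031), with 1 of these calls lost without SRRM4 library 2. The median log2 fold change was 0.07 over the 20S list and 0.02 over the regulators, below the 0.21 of the 7 presentation genes. Of the class II genes, which present peptides to CD4 T cells, 3 of 13 were measured and 0 were called in edgeR (1 at an unadjusted p under 0.05, higher).

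Of the known regulators of class I transcription, 6 of 20 measured genes rose with SRRM4 and 0 fell, where 4.47% of all genes were called higher and 3.22% lower (3 regulators called on log2 TPM, and 4 without SRRM4 library 3). NLRC5, the class I transactivator, stood at 9.03 ± 0.965 CPM in EV, 10.1 ± 1.81 in LSD1, 11.4 ± 1.13 in LSD1+8a and 16.4 ± 0.894 in SRRM4 (SD, n = 3). Its SRRM4 libraries (15.5 to 17.3 CPM) lay above the other 9, and the log2 fold change was 0.86 against the empty vector (SE 0.11, adjusted p = 1.72e-06 in edgeR) and 0.52 against LSD1+8a (adjusted p = 0.00193). RELB and NFKB2, subunits of the non-canonical NF-kB dimer, rose by 0.86 (3.39 to 6.18 CPM, adjusted p = 0.000361) and 0.46 (59.4 to 81.6 CPM, adjusted p = 1.42e-08) with SRRM4. Neither passed with LSD1+8a, at 0.02 and 0.08. The direct tests of SRRM4 against LSD1+8a gave 0.85 (adjusted p = 0.000589) for RELB and 0.38 (adjusted p = 7.41e-07) for NFKB2.

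IRF9, a subunit of the interferon-activated complex ISGF3, followed another order. It stood at 9.04 ± 0.962 CPM in EV, 11.8 ± 0.447 in LSD1, 17.2 ± 0.123 in LSD1+8a and 12.5 ± 1.86 in SRRM4 (SD, n = 3). It rose by 0.93 on the log2 scale with LSD1+8a (adjusted p = 1.06e-07 in edgeR) and by 0.46 with SRRM4 (adjusted p = 0.00542), and it was lower with SRRM4 than with LSD1+8a (log2 fold change -0.47, adjusted p = 0.00225). IRF9 was thus highest in LSD1+8a, while NLRC5 was highest in SRRM4; whether either moves with the presentation genes was not tested. IRF1, also called with SRRM4, is named after its value was seen (6.52 to 9.18 CPM, 0.49, adjusted p = 0.0318). With LSD1+8a 2 of 20 regulators were called, IRF9 among them (1 on log2 TPM), where 0.285% of all genes were called higher. NLRC5 stood 0.34 higher there (adjusted p = 0.479), and STAT2, another subunit of ISGF3, 0.10 higher (adjusted p = 0.628).

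**Figure D4:**
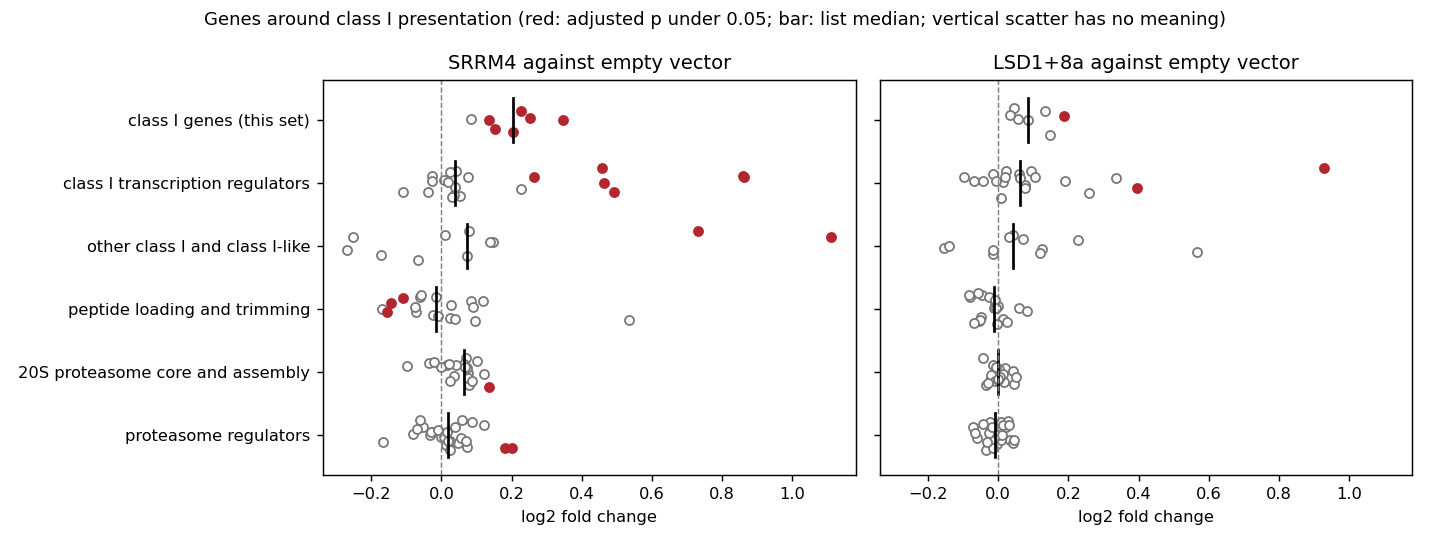
Log2 fold change of each measured gene of each list (points) with SRRM4 and with LSD1+8a against the empty vector, from edgeR, with list medians as bars and called genes in red. With SRRM4 the 7 presentation genes sit between 0.08 and 0.35, the regulators reach 0.86, RAET1L stands at 1.11, and the medians of the loading and proteasome lists are 0.07 or less.

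The prostate markers moved with the SRRM4 group too. Of 10 measured, 4 fell and 1 rose (5 called, 2 on log2 TPM), where 3.22% of all genes were called lower and 4.47% higher. Among them KLK3, which encodes PSA (log2 fold change -0.23, adjusted p = 1.45e-06 in edgeR), FOLH1, which encodes PSMA (-0.15, adjusted p = 0.00107), and TMPRSS2, a membrane protease (-0.15, adjusted p = 0.0109), were lower, and KRT8, a luminal keratin, was higher (0.12, adjusted p = 0.0235). None of the 10 passed in edgeR with LSD1+8a (1 was higher at an unadjusted p under 0.05). VWF was lower with SRRM4 (-0.29, adjusted p = 0.0131), a call lost by DESeq2, on log2 TPM and without SRRM4 library 3, and CD68 stood at 4.25 CPM with the empty vector and 4.91 with SRRM4 (adjusted p = 0.637). The part of the lower prostate markers in the class I differences was not tested.

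Across the 12 libraries the mean standardized level of the 7 genes was lowest in the empty vector (-0.95 to -0.73) and LSD1 (-0.76 to -0.34), higher in LSD1+8a (0.16 to 0.32) and highest in SRRM4 (1.04 to 1.2), and EV and LSD1 overlapped. Among 12994 other genes whose log2 CPM averaged 0 or more, the most alike by Pearson r over the same 12 libraries was RSAD2, which encodes viperin (r = 0.987), then RNF213 (0.965), TRANK1 (0.962) and TRIM22 (0.947). FAM53C (0.939), RANBP10 (0.936), ZNFX1 (0.930), RHBDD2 (0.927), ZFYVE26 (0.926) and MAP2K3 (0.926) completed the 10. The libraries share 4 groups, so these values describe a common order of groups and carry no test. The sizes differed widely: with SRRM4 RSAD2 was higher by 2.95 and RNF213 by 0.19 on the log2 scale, and with LSD1+8a by 1.67 and 0.09, against medians of 0.21 and 0.09 for the 7 presentation genes.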

How the data were processed

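Per the file headers, the authors deposited whole-number counts and TPM for each gene in 12 libraries. A deposited comparison table of the authors repeats the TPM and gives log2 fold changes with p-values and adjusted p-values against the empty vector; its name contains DESeq2. Per the submitters' processing notes, STAR 2.5.3a, RSEM 1.2.31 and hg19 were used; which tool made which table, and whether reads were counted by strand, are not given in the sources used here.

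Counts were fitted in edgeR 4.0.16 (R 4.3.3): TMM factors, filterByExpr (which removed 0 genes), 1 model of the 4 groups without a block, robust quasi-likelihood F tests, and 6 comparisons, each adjusted over 13001 genes and called at an adjusted p under 0.05. The biological coefficient of variation was 2.98%. Procedures were tested on simulated data.

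The genes and the lists were chosen with earlier results of these data known. Genes named from other lists are up to 4 per list with the smallest p in SRRM4 or LSD1+8a against the empty vector, and the 10 genes most like the mean profile. Alternatives were relative log expression and upper-quartile factors, no filter, a stricter filter (1 CPM in 6 libraries, mean log2 CPM of 1), DESeq2 1.42.0, limma-voom and limma-trend (limma 3.58.1) on log2(TPM + 1) and log2(TPM + 0.1), a replicate block, only the 2 groups compared, and leaving out each library. Overlaps and shared 50-base stretches came from GENCODE v29 on GRCh38, which is not the authors' build. Some genes counted in the lists are not reported here by name.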

Additional observations from a re-analysis of the deposited data

How the results depend on the processing

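Among single genes, 594 values under alternatives kept their direction and side of the threshold, 52 lost the threshold and 26 changed sign; no called result changed sign. On log2(TPM + 1) and log2(TPM + 0.1) the log2 fold change of TAP2 became -0.01296 and -0.01338 for SRRM4 against EV, -0.1576 and -0.1625 for LSD1+8a against EV, -0.1621 and -0.167 for LSD1+8a against LSD1, and -0.01742 and -0.01793 for SRRM4 against LSD1. For SRRM4 against LSD1+8a, HLA-B became -0.01021 and -0.01034 and HLA-E -0.09512 and -0.09934. The cause was not tested. Leaving out single libraries, the log2 fold change ranged over 0 for LSD1 against EV (HLA-C -0.01379 to 0.03628, HLA-E -0.04861 to 0.02912, TAP2 -0.01917 to 0.1057, TAPBP -0.04722 to 0.01554), for LSD1+8a against EV (TAP1 -0.006046 to 0.1087, TAP2 -0.01843 to 0.1076, TAPBP -0.002847 to 0.0519), for TAP2 in LSD1+8a against LSD1 (-0.01971 to 0.02875) and for HLA-B in SRRM4 against LSD1+8a (-0.02294 to 0.05641).

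Of the 7 genes, the number called on the 2 log2 TPM scales was 2 and 2 for SRRM4 against EV (6 in the counts), 0 and 0 against LSD1+8a (2) and 2 and 2 against LSD1 (5); DESeq2 called 3 in the last. Without single libraries these numbers were 3 to 6 and 2 to 5 for SRRM4 against EV and LSD1, and 0 to 1 for LSD1+8a against EV (1). Over all genes, calls for SRRM4 against EV were 999, with 563 by DESeq2, 327 and 325 on log2 TPM and 661 to 809 without single libraries. Against LSD1+8a they were 986, with 522, 211 and 203, and 561 to 1006, and against LSD1 916, with 499, 185 and 178, and 488 to 748. LSD1+8a against EV had 45 calls (24 and 24 on log2 TPM), LSD1+8a against LSD1 42 (21 and 19), and LSD1 against EV 13 (6 and 6, 20 when only the 2 groups were fitted, 5 to 14 without single libraries).

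A replicate block left 4 of 6 calls for SRRM4 against EV, with HLA-B (adjusted p = 0.0545) and HLA-E (0.051) no longer called, and changed no other call among the 7 genes. For libraries with the same number, deviations from the group means correlated at r of -0.163 to 0.143 (18 pairs, 1 over 0.1). These pairs gave 0.143, 0.0764 and 0.0999 for LSD1+8a against EV, and -0.163, -0.0869 and -0.0868 for LSD1 against EV. The labels do not say whether the number marks a shared batch or culture. With 3 libraries per group these values cannot settle it. Under upper-quartile factors the median of all genes farthest from 0 was -0.0144 (log2). The width of the intervals limits the smaller differences: the 95% interval of TAP2 with SRRM4 ran from -1.65 to 14.3%.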
